A study of Mus musculus with 50 samples.

Results

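The comparison described here is that of regulatory T cells (Treg cells) sorted from spleen, lung and liver of mice in a diphtheria toxin (DT) arm with those of a control arm labelled PBS. Its members were taken by their library titles: 9 DT libraries and 9 PBS libraries, 3 of each from every tissue, making 18 of the 50 libraries of the series. Tissue was a term in the model, and 1 DT effect common to the 3 tissues was fitted.

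The series asks how Treg cells generated around birth come to populate tissues, visceral adipose tissue (VAT) above all, and measured messenger RNA by sequencing. The strain label of all 18 libraries gives the allele Foxp3tm3(HBEGF/GFP)Ayr on a background named B6.129(Cg). In this strain Foxp3-expressing cells also carry the human diphtheria toxin receptor and GFP. The genotype label reads WT in both arms, and all mice were male and 20 weeks old. Per the series text, DT was injected into the peritoneum on 3 days at 12 weeks of age, followed by a rest of 8 to 9 weeks, so the cells of the DT arm were sampled long after the injections. That text describes the controls as littermates lacking the receptor, whereas the titles call them PBS and the strain label is the same in both arms. How far the Treg cells of the DT arm had been depleted and replaced cannot be told from the labels. Each library was made from 500 to 1000 double-sorted CD4+ GFP+ cells. It is not stated whether each library is a mouse of its own, or whether libraries of different tissues came from 1 mouse. The p-values therefore refer to variation among libraries, some of which may be technical.

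Treg cells are CD4 T cells that depend on the transcription factor Foxp3 and on interleukin-2, and they restrain immune responses. In lymphoid organs many of them are resting and recirculate under the control of Ccr7, S1pr1 and the transcription factors Tcf7, Lef1 and Klf2. In organs such as lung and liver more of them are in an effector state, with receptors and mediators such as Ctla4, Tigit, Il10 and Fgl2. When Treg cells are removed with DT, the survivors and new cells from the thymus refill the compartment.

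Depth was 3096011 to 6981037 counts per library, and mitochondrial transcripts took 0.601% to 1.16% of them. Of the libraries, 2 stood apart, both in the PBS arm. Spleen PBS 1 had a mean correlation of 0.861 with the others, where the remaining 17 libraries lay between 0.900 and 0.926, and lung PBS 2 held counts for 32497 genes, where the remaining 17 held 21978 to 28354. The sort was visible in both arms: Foxp3 stood between 116.7 and 381.6 CPM (read counts scaled to a common library size with TMM size factors) in every library, and the summed level of 9 T cell genes between 5543 and 7917 CPM. Some marker genes of other cell types were at or near 0, among them Lyz2 (median 0.180 CPM in PBS and 0.240 in DT), C1qa (0 in both) and Alb (0.558 and 0.720). Others were not. Ighm of the B cell list had medians of 1251 and 1239 CPM, Cd79b 29.5 and 14.97, Xbp1 of the plasma cell list 170.8 and 186.3, Pecam1 of the endothelial list 212.0 and 195.9, Zbtb46 of the dendritic cell list 38.6 and 36.0, Cd8b1 21.1 and 22.7, and Calca of the innate lymphoid list 0.871 and 19.6. The summed B cell list ranged from 670.7 to 1974 CPM over the libraries, and the hepatocyte list from 9.93 to 24.8 CPM in liver. The part of these transcripts in the results was not tested. For all 20 marker lists the range of the summed level in the 9 DT libraries overlapped that in the 9 PBS libraries. Within single tissues, 4 of 60 such ranges (6.67%) did not overlap, and they stand beside the results they accompany.

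Across the 3 tissues the DT arm differed from the PBS arm in few genes. Litaf, which encodes a membrane protein of late endosomes and lysosomes, and the long intergenic RNA Gm31718 rose, and Adam12, which encodes a membrane-anchored metalloprotease, fell. These were the only 3 of 13241 genes tested that passed an adjusted p of 0.05 (0.0227%; 2 higher, 0.0151%, and 1 lower, 0.00755%; edgeR quasi-likelihood F test with Benjamini-Hochberg adjustment). At an unadjusted p under 0.05 there were 687 genes (5.19%), 351 higher and 336 lower. The count was 0 without any 1 of the 3 tissues, with 526 to 643 genes at an unadjusted p under 0.05. With 1 library left out it was 6 without spleen PBS 1, 2 without lung PBS 3, 1 without spleen PBS 3, spleen DT 5 or liver PBS 2, and 0 without any other, with 541 to 882 genes at an unadjusted p under 0.05. Without both spleen PBS 1 and lung PBS 2 it was 4. Among the 8737 genes averaging 10 CPM or more the median standard error of the log2 fold change was 0.15 and the median half-width of its 95% interval 0.31.

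Litaf lies on chromosome 16 of mm10 (10959275 to 11066157, minus strand, protein-coding). In spleen it stood at 7.12, 22.7 and 30.8 CPM in the PBS libraries and at 35.7, 46.4 and 52.1 CPM in the DT libraries. In lung the PBS libraries held 51.5, 51.7 and 60.7 CPM and the DT libraries 86.3, 129.2 and 142.4 CPM. In liver the values were 63.9, 66.0 and 116.1 CPM in PBS and 132.9, 151.4 and 184.7 CPM in DT. Every DT library was thus above every PBS library of its tissue, with both arms increasing from spleen to liver. The mean over 9 libraries went from 52.3 to 106.8 CPM, a log2 fold change of 1.07 ± 0.19 (SE; edgeR adjusted p = 0.0450). The call was close to the threshold: with 1 library left out it was kept without spleen PBS 1 (edgeR adjusted p = 0.00901), spleen PBS 3 (0.0406) or liver PBS 2 (0.0391) and lost without any other of the 18 (adjusted p up to 0.144, log2 fold change 0.96 to 1.19 over all 18). Without both spleen PBS 1 and lung PBS 2 it was 0.93 (edgeR adjusted p = 0.0331).

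Gm31718 (chromosome 8, 126812640 to 126908215, minus strand, lincRNA) is a low transcript that shares its interval with A630001O12Rik on the opposite strand, at a mean of 3.07 CPM. The strand setting of the counting is not given in the sources used here, so reads of such pairs cannot be told apart. It stood at 11.0, 12.3 and 15.9 CPM in spleen PBS and 25.7, 27.8 and 37.98 CPM in spleen DT. Lung held 5.97, 7.84 and 10.6 CPM in PBS and 12.2, 12.3 and 14.4 CPM in DT, and liver 3.56, 4.56 and 5.71 CPM in PBS and 8.80, 10.9 and 11.0 CPM in DT. Here too the arms did not overlap in any tissue, and levels ran the other way from Litaf, highest in spleen. The log2 fold change was 1.01 ± 0.18 (edgeR adjusted p = 0.0450), and the call was kept only without spleen PBS 1 (edgeR adjusted p = 0.0299) or lung PBS 3 (0.0168) when each of the 18 libraries was left out. It was also lost without both libraries that stood apart (edgeR adjusted p = 0.0639). Adam12 (chromosome 7, 133883199 to 134232146, minus strand, protein-coding) stood at 1.26, 2.34 and 5.03 CPM in spleen PBS and at 0.185, 0.738 and 0.801 CPM in spleen DT. In liver it held 7.96, 17.8 and 18.8 CPM in PBS against 1.37, 2.04 and 2.71 CPM in DT, and in lung 3.04, 12.2 and 12.9 CPM against 2.85, 3.60 and 3.95 CPM. Its arms were separate in spleen and liver and overlapped in lung, where lung PBS 3 was as low as the DT libraries. The log2 fold change was -2.15 ± 0.38 (edgeR adjusted p = 0.0450), and, as for Gm31718, only leaving out spleen PBS 1 (edgeR adjusted p = 0.0177) or lung PBS 3 (0.0103) kept the call. Gm31718 and Adam12 fall outside the rule for named genes, since one is a numbered gene model and the other is below 10 CPM, and they were added after their values were seen because they complete the list of 3.

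**Figure D1:**
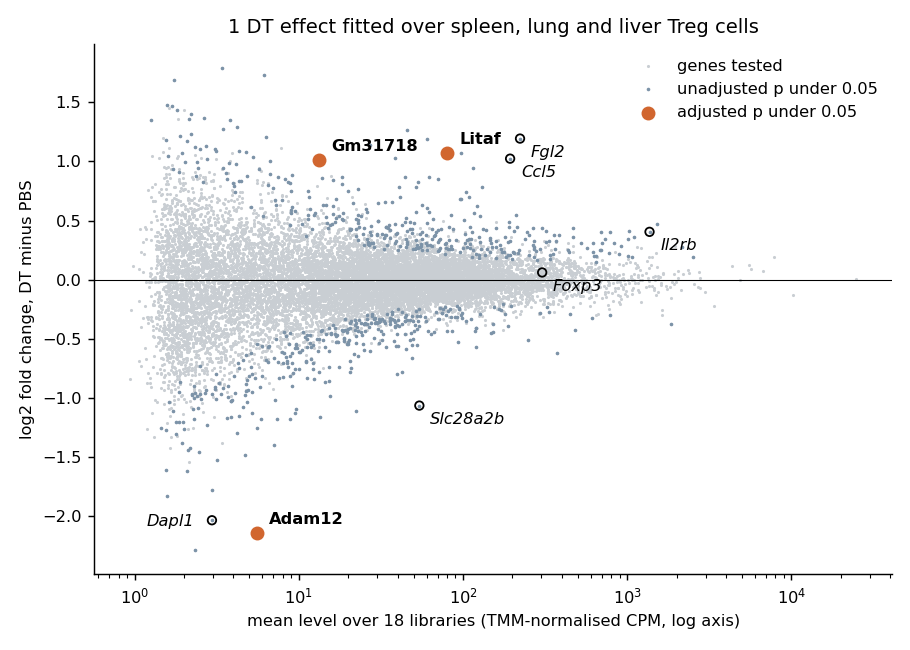
Log2 fold change of DT minus PBS over the 3 tissues (vertical axis) against mean CPM of 18 libraries (horizontal log axis), 1 point per gene tested, with genes at an unadjusted p under 0.05 in blue and the 3 genes past the adjusted threshold in orange; open circles mark genes named in the text. The 3 called genes have log2 fold changes of 1.07, 1.01 and -2.15, and Foxp3 lies near 0.

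**Figure D2:**
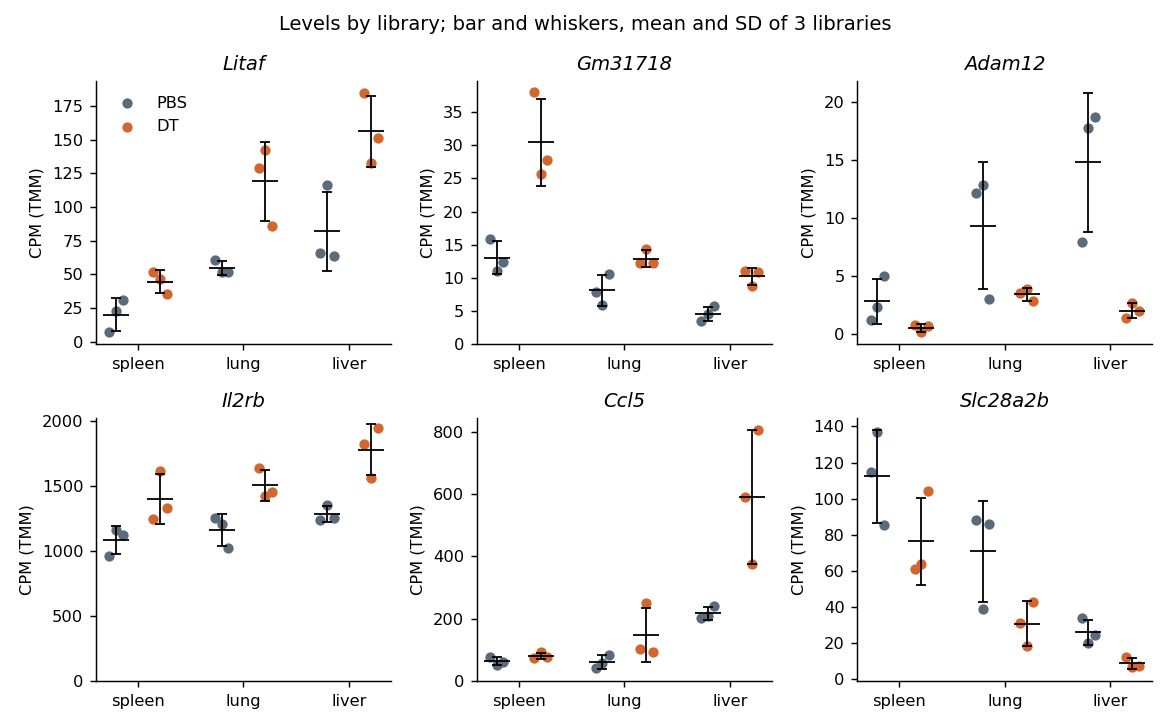
CPM in each library (points) of the 3 called genes and of Il2rb, Ccl5 and Slc28a2b, by tissue, PBS in grey and DT in orange; the bar and whiskers are the mean and SD of 3 libraries. The arms of Litaf, Gm31718 and Il2rb do not overlap in any of the 3 tissues.

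Beyond these 3, the values that follow are of the genes with the smallest p among those at 10 CPM or more. None of them passed the adjusted threshold in this fit. Il2rb, the chain shared by the receptors for interleukin-2 and interleukin-15, stood at 963.4, 1123 and 1162 CPM in spleen PBS and 1248, 1329 and 1616 CPM in spleen DT. In lung it stood at 1022, 1210 and 1252 CPM in PBS and 1420, 1452 and 1641 CPM in DT. In liver the PBS libraries held 1240, 1253 and 1355 CPM and the DT libraries 1561, 1825 and 1945 CPM. No tissue showed an overlap between the arms, and the size of the difference varied little between tissues, at 0.37, 0.38 and 0.47 log2 units in spleen, lung and liver. Its pooled log2 fold change was 0.40 ± 0.08 (edgeR adjusted p = 0.0771), the smallest of the 12 genes named in this direction and also among the most precise.

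Ccl5, a chemokine that attracts T cells, differed by tissue in level: the liver DT libraries held 375.8, 589.9 and 806.8 CPM against 202.2, 207.9 and 239.9 CPM in liver PBS. In lung it stood at 92.0, 101.8 and 248.7 CPM in DT against 41.4, 58.8 and 84.4 CPM in PBS, and in spleen at 72.9, 77.7 and 92.1 CPM against 52.2, 61.5 and 78.3 CPM. The arms overlapped in spleen only, and the high lung value was that of lung DT 5, which was also the highest lung library for Lilr4b (216.5 CPM), Fgl2 (377.8 CPM), Cxcr6 (199.4 CPM) and Asb2 (66.1 CPM). The pooled log2 fold change of Ccl5 was 1.02 ± 0.21 (edgeR adjusted p = 0.0908).

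Lilr4b and Lilrb4a are neighbouring genes on chromosome 10 (51480632 to 51486703 and 51490956 to 51496611, plus strand) for closely related immunoglobulin-like receptors of the leukocyte family. Their sequences are near-identical, so reads may have been split between them and their values are uncertain. Lilr4b ranged from 7.82 to 141.8 CPM in the 9 PBS libraries (median 50.3) and from 16.1 to 280.5 CPM in the 9 DT libraries (median 86.9). Its arms overlapped in spleen and were separate in lung and liver, with a log2 fold change of 1.07 ± 0.20 (edgeR adjusted p = 0.0771), and that of Lilrb4a was 1.03 ± 0.24 (edgeR adjusted p = 0.214).

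Fgl2, a secreted mediator of Treg suppression, stood at 15.6, 45.8 and 77.0 CPM in spleen PBS and 77.3, 93.5 and 101.0 CPM in spleen DT. Liver held 115.5, 261.3 and 288.8 CPM in PBS and 335.2, 595.7 and 955.2 CPM in DT, and lung 51.1, 122.1 and 164.3 CPM in PBS and 119.8, 208.8 and 377.8 CPM in DT. The arms were separate in spleen and liver and overlapped in lung, and the log2 fold change was 1.19 ± 0.28 (edgeR adjusted p = 0.214). The remaining genes of this direction had log2 fold changes of 1.27 ± 0.26 for Asb2, a substrate receptor of a ubiquitin ligase, and 1.14 ± 0.25 for the gelatinase gene Mmp9. For the cytotoxic granule gene Nkg7 it was 0.94 ± 0.23, and for Cxcr6, the receptor for Cxcl16, 0.85 ± 0.21. The phosphatase genes Cdc14a and Ptpn13 gave 0.75 ± 0.18 and 0.54 ± 0.11. Ptpn13 was the only one of these 6 whose arms were separate in all 3 tissues, and Asb2 and Nkg7 were separate in 1. Cxcr6 lies within Fyco1 on the opposite strand, which stood at a mean of 57.1 CPM with a log2 fold change of 0.07.

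In the other direction Slc28a2b, a member of the concentrative nucleoside transporter family, stood at 85.7, 114.5 and 137.1 CPM in spleen PBS and 61.2, 63.6 and 104.1 CPM in spleen DT. Lung held 38.6, 86.0 and 87.9 CPM in PBS and 18.3, 31.2 and 43.0 CPM in DT, and liver 20.2, 24.5 and 33.7 CPM in PBS and 6.54, 7.47 and 12.4 CPM in DT. Only in liver were the arms separate, and levels decreased from spleen to liver in both. The log2 fold change was -1.07 ± 0.21 (edgeR adjusted p = 0.0771), and the related Slc28a2, which may share reads with it, had 0.12 ± 0.10. Without both libraries that stood apart, Slc28a2b passed the threshold (log2 fold change -1.19, edgeR adjusted p = 0.0458).

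Mgmt, which removes alkyl groups from guanine in DNA, ranged from 17.6 to 45.6 CPM in the PBS libraries (median 23.1) and from 10.4 to 28.2 CPM in the DT libraries (median 13.8), with a log2 fold change of -0.78 ± 0.15 (edgeR adjusted p = 0.0771). Its arms were separate in lung and liver. Atp1b1, the beta subunit of the sodium-potassium pump, was separate in all 3 tissues, at 25.8 to 31.5 CPM in spleen PBS against 5.93 to 21.4 CPM in spleen DT, 21.1 to 35.5 against 9.84 to 19.5 CPM in lung and 4.56 to 5.43 against 2.72 to 2.93 CPM in liver. Its log2 fold change was -0.98 ± 0.21 (edgeR adjusted p = 0.124). It overlaps Nme7 on the opposite strand, which had a log2 fold change of -0.04. Pdk1, an inhibitory kinase of pyruvate dehydrogenase, had -0.52 ± 0.12, the relaxin gene Rln3 -1.11 ± 0.23, Sh3bgrl2 -1.16 ± 0.26 and the tetraspanin gene Cd9 -0.67 ± 0.16. For the mitochondrial carrier gene Slc25a27, the deubiquitinase gene Usp24, Unc5cl and Actr6 the log2 fold changes were -0.87, -0.50, -0.51 and -0.76. Cd86, a ligand of Cd28 and Ctla4, stood out among these for its uneven effect, at -1.36 ± 0.33 in spleen, -0.91 ± 0.33 in lung and -0.09 ± 0.33 in liver (edgeR adjusted p of the tissue interaction = 1).

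All 24 genes of the rule kept their direction in every alternative in which they were tested. The alternatives reused libraries by which the genes had been picked, so the kept direction is no added support. All 24 also had 1 sign in the 3 tissues. The rule required this only of called genes, but picking by a small p in the pooled fit favours it. The call did depend on the tool. DESeq2 called 29 genes, 13 higher and 16 lower in DT, and 19 of the 24 were among them, Il2rb, Ccl5, Lilr4b, Mgmt and Slc28a2b included. Of the tested genes, 3470 (26.2%) had 1 sign in all 3 tissues, and 8 (0.0604%) had arms that were separate in all 3 tissues in 1 direction. Those 8 were Litaf, Gm31718, Il2rb, Ptpn13, Atp1b1, Gm48893, the adaptor gene Sla (log2 fold change 0.34) and the AP-1 subunit gene Junb (0.28). For separation in fewer than 3 tissues the share over all genes is not given, so such statements are descriptions without a background. The genes of the rule were picked by p from the same values, so neither their shared sign nor their separate arms are added support.

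**Figure D3:**
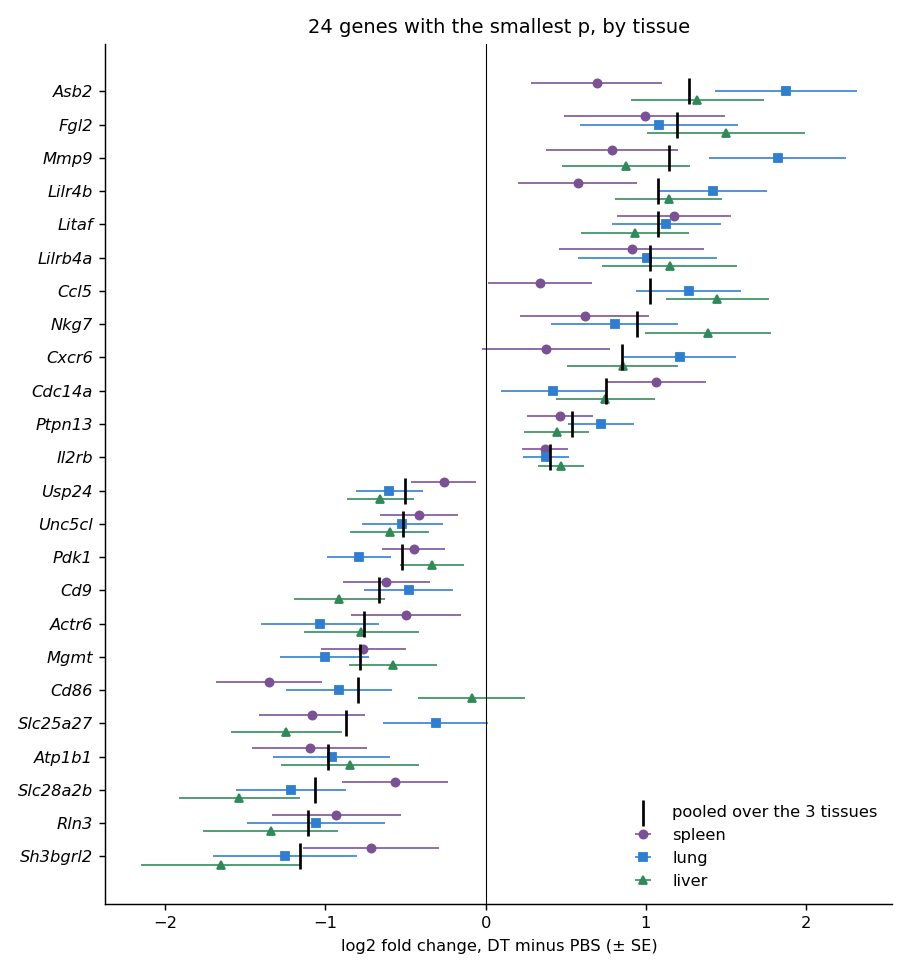
Log2 fold change of DT minus PBS with its SE (horizontal axis) for the 24 genes of the rule, by tissue (circles spleen, squares lung, triangles liver); the black bar is the pooled value. The genes were picked from the pooled fit of the same libraries. The 3 tissue values lie on 1 side of 0 for each gene, and Cd86 is nearest to 0 in liver at -0.09.

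None of the genes always named for Treg identity or tissue forms passed the adjusted threshold. Foxp3 stood between 116.7 and 362.2 CPM in PBS (median 316.6) and between 256.0 and 381.6 CPM in DT (median 295.7), with a log2 fold change of 0.06 ± 0.15 and a 95% interval of -0.24 to 0.36. The lowest Foxp3 value belonged to spleen PBS 1, and without that library the log2 fold change was -0.06. Il2ra, the alpha chain of the interleukin-2 receptor, had -0.09 ± 0.11 (95% interval -0.31 to 0.14), which became 0.02 without spleen PBS 1. Ikzf2 had 0.10 ± 0.09. Ctla4, the inhibitory receptor that binds Cd80 and Cd86, had 0.20 ± 0.09, with a 95% interval of 0.0094 to 0.39 (edgeR adjusted p = 0.928). The intervals of these 4 genes leave room for differences of at most 0.39 log2 units upward.

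Markers of tissue Treg cells showed larger spreads. Il1rl1, the interleukin-33 receptor, stood between 15.5 and 38.1 CPM in the 6 spleen libraries and between 181.0 and 724.1 CPM in the 12 of lung and liver, with a log2 fold change of 0.24 ± 0.20 for DT. Areg, a growth factor of tissue repair, lay between 2.77 and 6.25 CPM in spleen and between 217.7 and 674.4 CPM in lung and liver, and its log2 fold change was 0.15 ± 0.13. The tissue difference was thus far greater than any difference between the arms. Gata3 had 0.24 ± 0.14, and Klrg1 -0.10 ± 0.20, which became 0.13 without spleen PBS 3. Pparg, the nuclear receptor known for fat Treg cells, was low, at 0 to 9.33 CPM in PBS and 0.738 to 10.6 CPM in DT, and its log2 fold change of 0.24 ± 0.51 became -0.01 without lung DT 4. Cd36, a fatty acid receptor, had 0 to 2.39 CPM and was too low to be tested. The proliferation gene Mki67 ranged from 7.56 to 270.5 CPM in PBS and from 21.1 to 172.3 CPM in DT, with a log2 fold change of -0.13 ± 0.29 that became 0.08 without lung PBS 2 and 0.06 without spleen PBS 3.

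Gene lists were read by counting members and by their median, beside all genes tested, whose median log2 fold change was -0.01, with 2.65% at an unadjusted p under 0.05 higher in DT and 2.54% lower. No member of any of the 20 pathway lists passed the adjusted threshold in edgeR. Lists that share genes are not separate measurements, and the members named are those with the smallest p, picked after their values were seen.

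The Treg core list and the effector and tissue Treg list lay above all genes in DT. Of 24 core genes, 21 had a positive log2 fold change, 13 of them at an unadjusted p under 0.05 and none below 0 at that limit, and the median was 0.26 (0.27 in spleen, 0.23 in lung and 0.24 in liver). After Il2rb came the ectonucleotidases Entpd1 (0.40 ± 0.13) and Nt5e (0.38 ± 0.12), which make adenosine from ATP, and the inhibitory receptor gene Tigit (0.34 ± 0.11). Tigit stood at 975.7 to 1057 CPM in liver PBS against 1164 to 1343 CPM in liver DT, while in spleen (176.3 to 338.1 against 249.9 to 394.7) and lung (650.0 to 704.1 against 701.3 to 1003) the arms overlapped. Without lung the list had 8 members at that limit and without liver 6.

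Of 29 effector and tissue Treg genes tested, 26 had a positive log2 fold change and 10 reached an unadjusted p under 0.05, with a median of 0.24 (0.37 in spleen, 0.31 in lung, 0.07 in liver). Lag3, an inhibitory receptor for MHC class II, had the largest value after Fgl2, with a range of 5.07 to 80.4 CPM in PBS (median 28.8), 19.2 to 167.7 CPM in DT (median 75.4) and a log2 fold change of 1.19 ± 0.32. The cytokine gene Il10 had 0.87 ± 0.31, at 35.6, 86.1 and 118.9 CPM in liver PBS and 115.9, 229.5 and 250.0 CPM in liver DT. The chemokine receptor gene Ccr8 had 0.55 ± 0.17. For Lag3, Il10 and Ccr8 the arms overlapped in every tissue. The list shares Icos, Il10, Penk and Tigit with the core list. Without spleen DT 4 it had 6 members at that limit, and with no low-count filter 16 of 30.

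Of 18 tested genes responding to T cell receptor signals, 15 had a positive log2 fold change, 8 reached an unadjusted p under 0.05, all higher, and the median was 0.25. Nr4a1, an early target of receptor signalling, stood at 72.4, 117.6 and 129.1 CPM in spleen PBS and 120.1, 169.3 and 203.7 CPM in spleen DT, and at 1187, 1225 and 1312 CPM in lung PBS and 1547, 1673 and 2094 CPM in lung DT. In liver it stood at 2283, 2524 and 3111 CPM in PBS and 2407, 3619 and 3626 CPM in DT, so that the arms were separate in lung only. The log2 fold change of Nr4a1 was 0.47 ± 0.12, that of Egr1 0.69 ± 0.20 and that of Nr4a3 0.40 ± 0.13. Without spleen 3 members were left at that limit, without lung 5, and with the replicate block by sums over tissues 4. The summed level of the 9 defining T cell genes, which share Cd5 with this list, was higher in DT in lung (6338 to 6777 against 5543 to 6112 CPM) and overlapped in spleen and liver. The part of that in these values was not tested.

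The resting and recirculating list lay on the other side. All 18 genes tested had a negative log2 fold change, 10 at an unadjusted p under 0.05, and the median was -0.32 (-0.16 in spleen, -0.33 in lung and -0.46 in liver). Dapl1, a gene of naive T cells, was low, at 1.05 to 12.4 CPM in PBS (median 4.06) and 0 to 3.88 CPM in DT (median 1.201), with a log2 fold change of -2.04 ± 0.48 and separate arms in spleen and liver. Ly6c1, a surface antigen of resting Treg cells, ranged from 13.0 to 106.8 CPM in PBS (median 43.6) and from 3.74 to 65.3 CPM in DT (median 32.1), with -0.78 ± 0.24. Its arms overlapped in every tissue. The transcription factor genes Klf3, Tcf7 and Klf2 had -0.44 ± 0.15, -0.29 ± 0.12 and -0.35 ± 0.16, and the lymph node homing receptor Ccr7 -0.37 ± 0.17. For Ccr7 the spread within arms was wide, at 2838 to 5222 CPM in lung PBS and 2537 to 4235 CPM in lung DT. The count of members at that limit fell from 10 to 3 without lung and to 3 without liver. It was 4 without lung PBS 3, lung DT 5 or liver DT 6, 5 without spleen DT 4 or liver PBS 1 and 6 without spleen PBS 2 or liver DT 4. It was 6 in the fit of all 32 peripheral libraries and 10 without both libraries that stood apart, and the median stayed between -0.37 and -0.26 with any 1 of the 18 left out. In bulk libraries fewer cells of a type and less RNA per cell cannot be told apart.

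Among 18 Th1-like and cytotoxic genes, 13 had a positive log2 fold change, 5 at an unadjusted p under 0.05, and the median was 0.27. Next to Ccl5 and Nkg7 these were Cxcr3 (0.44 ± 0.13), a chemokine receptor of Th1 cells, the transcription factor gene Tbx21 (0.87 ± 0.33) and Ifng (1.204 ± 0.51), whereas the granzyme genes Gzma and Gzmb had -0.83 ± 0.56 and -0.04 ± 0.27. Ifng and Gzma were low, at medians of 2.34 and 2.31 CPM in PBS and 3.12 and 3.61 CPM in DT. Their fold changes are uncertain. The summed level of the CD8 T cell genes Cd8a and Cd8b1 was higher in DT in liver (36.3 to 57.2 against 18.01 to 30.0 CPM) and overlapped in spleen and lung. Its part in the liver values of this list was not tested. In the cell cycle list 4 of 32 genes had a positive log2 fold change, none of the 32 reached an unadjusted p under 0.05 in either direction, and the median was -0.20. The interferon response list had a median of 0.13, with 22 of 28 genes positive, 2 at that limit higher and 1 lower.

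**Figure D4:**
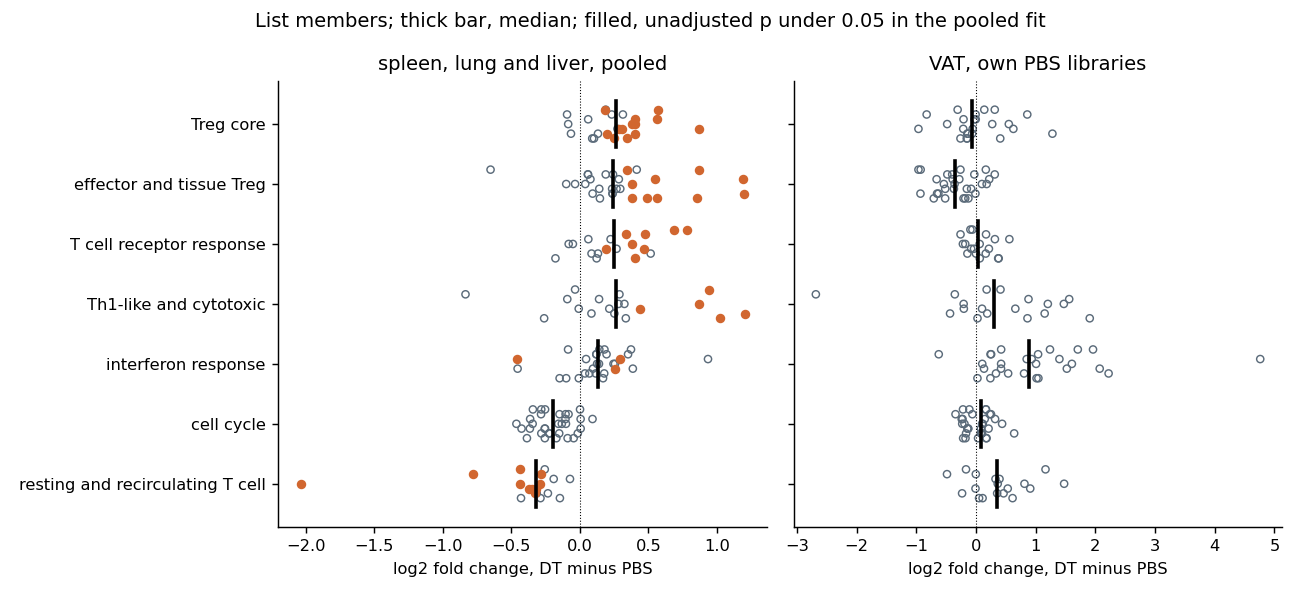
Log2 fold changes of DT minus PBS of the members of 7 gene lists (1 point per gene, thick bar the median), pooled over spleen, lung and liver on the left and in VAT, with its own 8 libraries, on the right; filled points have an unadjusted p under 0.05 in the pooled fit. On the left the medians run from 0.27 for the Th1-like list to -0.32 for the resting list, and on the right that of the effector list is -0.36 and that of the resting list 0.36.

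Taken tissue by tissue, no gene passed the adjusted threshold with edgeR in spleen, lung or liver (14614 genes tested, 0% in each). At an unadjusted p under 0.05 there were 885 genes in spleen (6.06%), 375 in lung (2.57%) and 486 in liver (3.33%). The spleen number was unstable, at 399 without spleen PBS 1 and 2188 without spleen PBS 3. With 1 of its own libraries left out, lung had 334 to 648 and liver 467 to 686. When each tissue was fitted alone the numbers were 358, 412 and 525, so they do not rank the tissues. DESeq2 called 4 genes in spleen, 0 in lung and 1 in liver. With edgeR, the spleen count past the adjusted threshold rose to 11 without spleen PBS 3 and to 2 without spleen DT 5. The liver count rose to 1 without liver DT 6. In the test of whether the DT effect differed between the 3 tissues, no gene passed with edgeR (0%), 410 (2.81%) had an unadjusted p under 0.05, and DESeq2 called 0. With 3 libraries in each group this does not show that the tissues responded alike. Cxcr6 illustrates the spread, with log2 fold changes of 0.37 ± 0.40 in spleen, 1.21 ± 0.35 in lung and 0.86 ± 0.34 in liver. In spleen the summed level of dendritic cell markers was lower in DT (27.1 to 36.0 against 36.2 to 53.1 CPM). The list's highest members were Zbtb46 and Ccr9, the latter at 17.97 ± 2.4 CPM in spleen PBS and 12.7 ± 6.0 CPM in spleen DT (SD, n = 3), and Clec9a had a median of 0. The summed level of adipocyte markers was higher in DT there (1.99 to 3.05 against 0.573 to 1.51 CPM). The part of either in the spleen values was not tested.

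Against VAT, where 4 DT and 4 PBS libraries were sorted, 4 of 17731 genes differed in their DT effect from the mean of the 3 tissues (0.0226%, edgeR). Pdcd1, the inhibitory receptor PD-1, went from a mean of 516.8 ± 161.6 to 246.6 ± 65.4 CPM in VAT (SD, n = 4), a log2 fold change of -1.07 ± 0.20, while in spleen, lung and liver it was 0.37 ± 0.13. The difference was -1.44 ± 0.24 (edgeR adjusted p = 0.0117). In the 3 tissues Pdcd1 ranged from 144.8 to 743.9 CPM in PBS and from 148.1 to 967.7 CPM in DT, with overlapping arms in each tissue. Mapkbp1, which encodes a scaffold of mitogen-activated kinases, differed by -1.68 ± 0.28 (edgeR adjusted p = 0.0117), with -0.995 ± 0.23 in VAT and 0.68 ± 0.16 in the 3 tissues. Its spleen libraries were the ones with separate arms, at 9.07, 13.9 and 14.2 CPM in PBS and 24.95, 34.5 and 36.4 CPM in DT. In the fit of 18 libraries Mapkbp1 had 1.37 ± 0.28 in spleen, 0.30 ± 0.27 in lung and 0.32 ± 0.27 in liver. Themis, a regulator of T cell receptor signalling during T cell development, differed by 1.58 ± 0.29 (edgeR adjusted p = 0.0330), at 1.85 ± 0.25 in VAT and 0.26 ± 0.16 in the 3 tissues. Frmd6, a membrane-cytoskeleton adaptor, differed by 1.61 ± 0.31 (edgeR adjusted p = 0.0450), at 1.36 ± 0.26 in VAT and -0.25 ± 0.17 in the 3 tissues. That mean joins unlike values. In the fit of 18 libraries Frmd6 had 0.51 ± 0.25 in spleen, -0.67 ± 0.25 in lung and -0.62 ± 0.25 in liver. The tissue interaction did not pass for Mapkbp1 or Frmd6.

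These 4 calls depended on single VAT libraries. Whether they also depended on single spleen, lung or liver libraries was not tested. With each of the 8 VAT libraries left out in turn the number of genes called ranged from 0 to 10. It was 0 without VAT PBS 2, PBS 3, DT 5 or DT 8, 1 without VAT DT 7 and 10 without VAT PBS 4. In the ear skin, with 3 libraries in each arm, 2 genes differed from the mean of the 3 tissues (0.0113%, edgeR), the interferon-induced GTPase gene Gbp6 by 1.78 ± 0.31 and the ectophosphodiesterase gene Enpp4 by -3.56 ± 0.64 (edgeR adjusted p = 0.0304 for both). Gbp6 had a log2 fold change of 0.12 ± 0.15 and Enpp4 of 0.14 ± 0.21 as the mean of spleen, lung and liver in the same fit. Pdcd1 and Themis had ear skin log2 fold changes of -1.05 ± 0.25 and 1.66 ± 0.29, near those in VAT. Their differences from the 3 tissues, -1.42 ± 0.28 and 1.40 ± 0.33, did not pass (edgeR adjusted p = 0.0670 and 0.162). Mapkbp1 and Frmd6 had -0.27 ± 0.27 and -0.13 ± 0.31 in ear skin. No ear skin call was left without ear skin PBS 1, PBS 3 or DT 5, and there were 6 without PBS 2 or DT 6.

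The VAT and ear skin libraries share none with the 3 tissues, so their list values can be set beside those above, as a description. The resting list had a median of -0.32 in spleen, lung and liver, 0.36 in VAT and 0.13 in ear skin, and the effector list 0.24, -0.36 and 0.05. The core list had 0.26, -0.06 and 0.12. Of single members, Fgl2 had a difference between VAT and the 3 tissues of -1.86 ± 0.43 that did not pass (edgeR adjusted p = 0.240). Il2rb had -0.44 ± 0.14 by the same test (edgeR adjusted p = 0.433). Litaf was similar in size in all 5 tissues by its values, at 0.99 ± 0.30 in VAT and 0.84 ± 0.34 in ear skin, neither of which passed (edgeR adjusted p = 0.286 and 0.628).

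**Figure D5:**
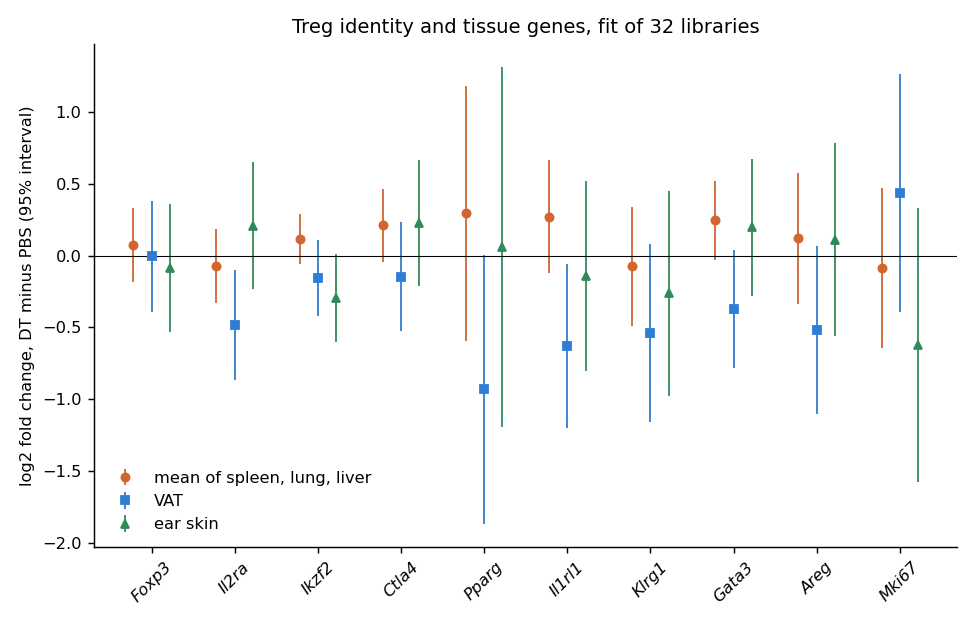
Log2 fold change of DT minus PBS with its 95% interval (vertical axis) for 10 Treg identity and tissue genes in a fit of all 32 peripheral libraries, as the mean of spleen, lung and liver (circles), in VAT (squares) and in ear skin (triangles). Foxp3 lies near 0 in all 3 sets of points.

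The number of genes with at least 1 count, after thinning each library to 3096011 counts, gave a mean difference within tissues of -648.6 genes, DT minus PBS. An exact permutation test of the arm labels within tissue gave p = 0.696 (two-sided, 8000 assignments, 9 libraries against 9). The direction rested on lung PBS 2, without which DT was higher by 583.2 genes (exact permutation p = 0.650).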

How the data were processed

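The deposited values are raw counts of reads for each gene symbol, in 1 table. The submitters' processing notes name STAR 2.7.3a, featureCounts and the build mm10. For the annotation and for multi-mapping reads, nothing was given in the sources used here. The labels' extraction text speaks of muscle cells in places, and only its low-input library steps were taken as describing these samples. Positions are from GENCODE M21 (mm10).

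Counts were fitted with edgeR 4.0.16 in R 4.3.3 (TMM, filterByExpr with a minimum count of 10 and total of 15, quasi-likelihood F test, two-sided, Benjamini-Hochberg adjustment at 0.05) as tissue plus arm on 18 libraries, as 6 groups for single tissues and their interaction, and as 10 groups on all 32 peripheral libraries for VAT and ear skin. The SE was obtained by dividing the absolute log2 fold change by the root of F. Levels are TMM-scaled CPM, and marker sums plain CPM. Fold changes of genes near 0 CPM are uncertain. Only the pooled fit was run on simulated counts, in which libraries were drawn independently. No library repeated the counts of another of its group to within counting noise. Over 18 pairs, the chi-square divided by its degrees of freedom was 8.82 to 66.5 (genes with at least 20 counts). That cannot tell libraries of 1 mouse from libraries of different mice. DESeq2 1.42.0 and limma 3.58.1 were alternatives.

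The members, gene lists, tests and alternatives were chosen with earlier results of these data known. Named genes average at least 10 CPM. They are the called genes with 1 sign in the 3 tissues. Up to 12 in each direction, the rest are those with the smallest p, whatever their signs by tissue. Up to 3 called genes of each pathway list were added. Foxp3, Il2ra, Ikzf2, Ctla4, Pparg, Il1rl1, Klrg1, Gata3, Areg, Cd36 and Mki67 were always included, with 1 further gene that is not reported here, as were up to 5 called genes of each difference between tissues. Numbered gene models, pseudogenes and receptor segments were left out. Of 20 pathway lists those not described in the report are given under other observations, and 20 marker lists covered other cell types.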

Additional observations from a re-analysis of the deposited data

Results flagged for a closer look

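The effect of DT differed between VAT and the mean of spleen, lung and liver in 4 genes by the edgeR test of the difference itself. The difference was -1.44 for Pdcd1 and -1.68 for Mapkbp1 (edgeR adjusted p = 0.0117 for both), 1.58 for Themis (edgeR adjusted p = 0.0330) and 1.61 for Frmd6 (edgeR adjusted p = 0.0450), in log2 units. Between ear skin and the mean of the 3 tissues it was 1.78 for Gbp6 and -3.56 for Enpp4 (edgeR adjusted p = 0.0304 for both). For Pdcd1 and Themis the ear skin difference was -1.42 and 1.40, which did not pass (edgeR adjusted p = 0.0670 and 0.162). Enpp4 stood at 6.03 ± 1.53 CPM in ear skin PBS and 0.549 ± 0.390 CPM in ear skin DT (SD, n = 3), so its value there rests on low levels. With 1 VAT library left out in turn, the adjusted p ranged from 0.00011 to 0.121 for Mapkbp1, from 0.00217 to 0.121 for Pdcd1, from 0.0194 to 0.219 for Themis and from 0.0114 to 0.224 for Frmd6 (edgeR). With 1 ear skin library left out it ranged from 0.0268 to 0.304 for Gbp6 and from 0.0375 to 0.304 for Enpp4 (edgeR).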

How the results depend on the processing

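The pooled count of 3 genes was 3 with relative log expression size factors, 44 with no low-count filter, 0 with a floor of 20 CPM (411 at an unadjusted p under 0.05, edgeR), 29 with DESeq2, 6 with limma voom and quality weights, 5 in a fit of all 32 peripheral libraries and 0 without spleen, lung or liver. With 1 library left out it ranged from 0 to 6. Deviations of same-numbered libraries of different tissues had correlations of -0.191 to 0.171, and those of different numbers -0.203 to 0.253. Between spleen and liver of the DT arm all same-numbered values were higher (0.0562 to 0.109 against -0.113 to 0.029), and elsewhere the ranges overlapped. The numbers were not taken to pair libraries, but whether they share a mouse cannot be told from these values. Limma voom gave 3 calls with a replicate block as a random term and 3 without it. In both fits these were Litaf, Gm31718 and Lilr4b, all higher, and Adam12 was lost (limma adjusted p = 0.315 and 0.273), as it was with quality weights (0.103). A replicate block by sums over tissues in edgeR gave 1 call (Ccl5). The cause of these differences was not tested.

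Without the filter the counts for spleen, lung, liver, the interaction, VAT and ear skin were 21, 11, 21, 6, 156 and 57, and with DESeq2 4, 0, 1, 0, 13 and 27. With other size factors ear skin had 4. With 1 library left out the ranges were 0 to 11 in spleen, 0 to 1 in liver, 0 to 10 for VAT and 0 to 6 for ear skin.

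Genes near 0 changed sign. Foxp3 was -0.033 with voom weights, -0.12 without spleen, -0.076 without both libraries that stood apart and -0.057 to 0.11 with 1 library left out. For the same settings Il2ra was 0.012, 0.00685, 0.045 and -0.12 to 0.021. Pparg was -0.063 without lung, -0.056 without both and -0.012 to 0.65 with 1 left out. Mki67 was 0.014 without liver and -0.28 to 0.077 with 1 left out, and Klrg1 -0.20 to 0.13. The difference in detected genes was 217.2 without both libraries and -1401 to 583.2 with 1 left out. The removal of both libraries was chosen after seeing the data, as were the list counts under alternatives.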

Other observations

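None of the pathway lists that follow had a member past the adjusted threshold in edgeR. In each list the count is of members at an unadjusted p under 0.05 that were higher or lower in DT, and the members named were picked after their values were seen. Among 27 homing receptors and integrins, 6 were higher, with the smallest p for Cxcr6 and Cxcr3, and 5 lower, among them Ccr6 (-0.52 ± 0.18), a receptor for Ccl20, and Cxcr5 (-0.44 ± 0.20), the receptor of follicular cells. The inhibitory and costimulatory receptors had 7 of 21 higher and 0 lower with a median of 0.12. The effector cytokines and chemokines had 5 of 14 higher and 0 lower with a median of 0.33, but medians of -0.12 in spleen, 0.36 in lung and 0.25 in liver. In the interleukin-2 receptor and STAT5 list the 3 members at that limit were Il2rb and the feedback inhibitor gene Cish (0.33 ± 0.12), higher, and the survival gene Bcl2 (-0.38 ± 0.13), lower. The Bcl2 family list had 1 higher and 1 lower of 18.

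Of the AP-1 and immediate early genes 2 of 18 were higher and 0 lower, of the NF-kB genes 3 of 18 and 0, of the TGF-beta genes 2 of 15 and 1. Of 22 cholesterol synthesis genes 1 was higher and 0 lower, and of 16 lipid uptake and oxidation genes 1 and 0. The Th2- and Th17-like list had 0 of 9 higher and 1 lower, the heat shock list 0 and 0 of 14, and the glycolysis list 0 and 0 of 16. Medians of these 8 lists ran from -0.07 for heat shock to 0.09 for the Th2- and Th17-like list.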
